A study of Homo sapiens with 6 samples.

Results

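The set described here holds 7 genes, the long noncoding RNAs NEAT1 and MALAT1 and the paraspeckle protein genes NONO, SFPQ, PSPC1, RBM14 and CPSF6, out of 57773 genes in the count table. They were chosen by symbol, with earlier results of the same comparison known, so their differences between the groups are given as a description and without a test of their own. Poly(A) RNA was sequenced from A549, an established human lung adenocarcinoma line of alveolar epithelial type. In 3 samples the cells had received recombinant human surfactant protein D (rhSP-D), a carbohydrate-binding collectin of the lung lining, at 10 µg/ml for 48 h. In the 3 vehicle samples they had received an equal volume of the elution buffer for 48 h. Both groups were the same line in the same serum-containing medium, with no genetic change stated, and no untreated cells are among the samples.

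Paraspeckles are nuclear bodies built on NEAT1, which is transcribed as a short and a long form from a shared start. The long form is the scaffold, onto which the related RNA-binding proteins NONO, SFPQ and PSPC1 assemble, and RBM14 holds the core together. CPSF6, a subunit of cleavage factor I with NUDT21, favours polyadenylation of the short form, and MALAT1, transcribed from the adjacent gene, gathers instead in nuclear speckles, where splicing factors are stored.

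NEAT1 (ENSG00000245532) lies on the plus strand at chr11:65422774-65445540 of GRCh38 and MALAT1 (ENSG00000251562) at chr11:65497688-65506516, also on the plus strand, in the GENCODE 29 annotation. The gap between them is 52.1 kb and holds 0 tested genes. Merged exons cover 22767 nt of NEAT1 and 8829 nt of MALAT1, so nearly the whole of each gene is exonic, and a count per gene adds all forms of it. The 3' ends are shown because the forms are known to end differently: the short NEAT1 RNA by cleavage and polyadenylation, the long form and MALAT1 by RNase P cleavage, after which an A-rich tract in a triple helix protects the end. Windows of 100 nt from 4 annotated transcripts follow, 5' to 3' on the transcript strand. Capitals mark TGTA (the DNA form of the UGUA motif bound by cleavage factor I), AATAAA (the polyadenylation signal) and an A-rich tract that ends right before an annotated small RNA (RF01684), the tRNA-like product of RNase P cleavage.
NEAT1-208: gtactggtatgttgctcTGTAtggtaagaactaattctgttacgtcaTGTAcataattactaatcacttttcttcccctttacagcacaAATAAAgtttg
NEAT1-202: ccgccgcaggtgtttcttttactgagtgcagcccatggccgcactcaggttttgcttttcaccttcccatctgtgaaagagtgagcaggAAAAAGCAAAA
MALAT1-202: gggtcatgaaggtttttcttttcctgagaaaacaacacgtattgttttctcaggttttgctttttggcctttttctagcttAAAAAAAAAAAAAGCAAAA
MALAT1-209: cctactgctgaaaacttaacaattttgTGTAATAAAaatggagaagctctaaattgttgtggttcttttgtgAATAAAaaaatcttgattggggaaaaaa
NEAT1-208 is a short form of 2994 nt, the one annotated to end farthest downstream. Its last 100 nt are chr11:65426414-65426513 and hold 2 TGTA and 1 AATAAA. The other short forms end upstream of this AATAAA, for example NEAT1-207 at 65426499, and their ends are not shown. NEAT1-202 is the longest form, 22743 nt, with its window at chr11:65445441-65445540. It holds 0 TGTA and 0 AATAAA and ends in an A-rich tract of 11 nt, with the small RNA starting at the next base. The window of MALAT1-202, an unspliced transcript of 8708 nt, is not its annotated end but the stretch before the small RNA (chr11:65506017-65506116). It too holds 0 of either motif, and its tract is 19 nt. MALAT1-209, a transcript of 587 nt, ends downstream of that small RNA and farthest downstream of the annotated MALAT1 transcripts. Its last 100 nt (chr11:65506417-65506516) hold 1 TGTA, which shares its last base with the first of 2 AATAAA. Searched on the transcript strand only, TGTA occurs in the last 100 nt of 35.6% and AATAAA in 27.6% of 129929 annotated transcripts of tested genes. Both motifs occur in 13.9%, and 2 or more TGTA in 10.3%. These matches describe the letters of the windows. How far each form was captured as poly(A) RNA, and which form a count came from, was not tested.

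Total counts ran from 11396193 to 26030880 per library, and the share of mitochondrially encoded genes was 7.74 to 7.78% (vehicle) and 7.81 to 7.88% (rhSP-D). The epithelial keratins KRT8 (5035 to 5126 CPM) and KRT18 (4158 to 4245) and the cadherin CDH1 (138 to 153) were abundant in all 6 libraries. For these markers CPM is the count as a share of the unscaled library total. KRT19 (1.31 to 2.31) and EPCAM (1.49 to 2.52), by contrast, were near absent. Of markers of other cells, PTPRC and CDH5 had 0 to 1 counts and DCN 0, with CD14 at 3.23 to 4.14 CPM and LUM at 0.957 to 1.93 CPM. These marker values are unscaled, while all CPM below are the count as a share of the library size scaled by TMM factors. The factors were 1.01 to 1.02 in vehicle and 0.985 to 0.987 with rhSP-D. A gene is said to have risen, fallen or changed where edgeR's quasi-likelihood test gave an adjusted p under 0.05 over the 15848 genes tested.

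All 7 members passed the filter on low counts. NEAT1 passed the test and was lower with rhSP-D, which makes 1 of 7 members called, beside 15.9% of all genes tested in either direction, 6.63% in the lower and 9.31% in the higher direction. The groups did not overlap in CPM for 4 of the 7, NEAT1, SFPQ and PSPC1 lower and MALAT1 higher, beside 31.5% of all genes. As shares of the unscaled library totals, MALAT1 overlapped and CPSF6 did not. Since this comparison chose the members, nothing further is read from these counts. The log2 changes of the 7 had a median of -0.05, against -0.006 over all genes tested.

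NEAT1 measured 1351, 1358 and 1325 CPM in vehicle replicates 1 to 3 and 1123, 1146 and 1172 CPM with rhSP-D. The highest rhSP-D library was below the lowest vehicle library, and the libraries within each group lay close together. The means were 1345 ± 17.7 and 1147 ± 24.7 CPM (SD, n = 3 each), a log2 change of -0.23 ± 0.02 (SE), or -14.7% with a 95% interval from -16.8% to -12.6%. As raw counts this was 15616 to 26641 reads per vehicle library and 21019 to 28748 per rhSP-D library, so that counting error alone was 0.671% and 0.641% of the group means, beside observed coefficients of variation of 1.32% and 2.15%. NEAT1 was lower, and past the threshold, under all 18 alternatives run, with log2 changes from -0.27 to -0.12; the smallest, -0.12, came with trends on GC content and length removed. In bulk RNA, fewer cells with the transcript and less of it in each cell cannot be told apart.

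MALAT1 measured 2156, 2092 and 2077 CPM in vehicle and 2386, 2169 and 2409 CPM with rhSP-D. Each rhSP-D library was above every vehicle library, but replicate 2 exceeded the highest of them only slightly. As a share of the unscaled library total, rhSP-D replicate 2 (0.214%) was below vehicle replicate 1 (0.219%). The separation of the groups thus depended on the scaling. The means were 2108 ± 41.8 and 2322 ± 132 CPM (SD, n = 3 each), a log2 change of 0.14 ± 0.05 (SE), or 10.2% with a 95% interval from 0.45% to 20.9%. MALAT1 did not pass the test over all genes (edgeR adjusted p = 0.162). The spread within the rhSP-D group was 5.70% of its mean, while counting error was 0.449%. Without rhSP-D replicate 2 the log2 change was 0.19 with an adjusted p of 1.22e-07 in edgeR's test. Leaving out any other library gave no call (edgeR adjusted p from 0.228 to 0.360). DESeq2 with all libraries gave 0.14 and an adjusted p of 0.0340. MALAT1 was called in 4 of the 18 alternatives, these and the fits with a replicate block. Over all 18 its change was positive, from 0.10 to 0.24.

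**Figure D1:**
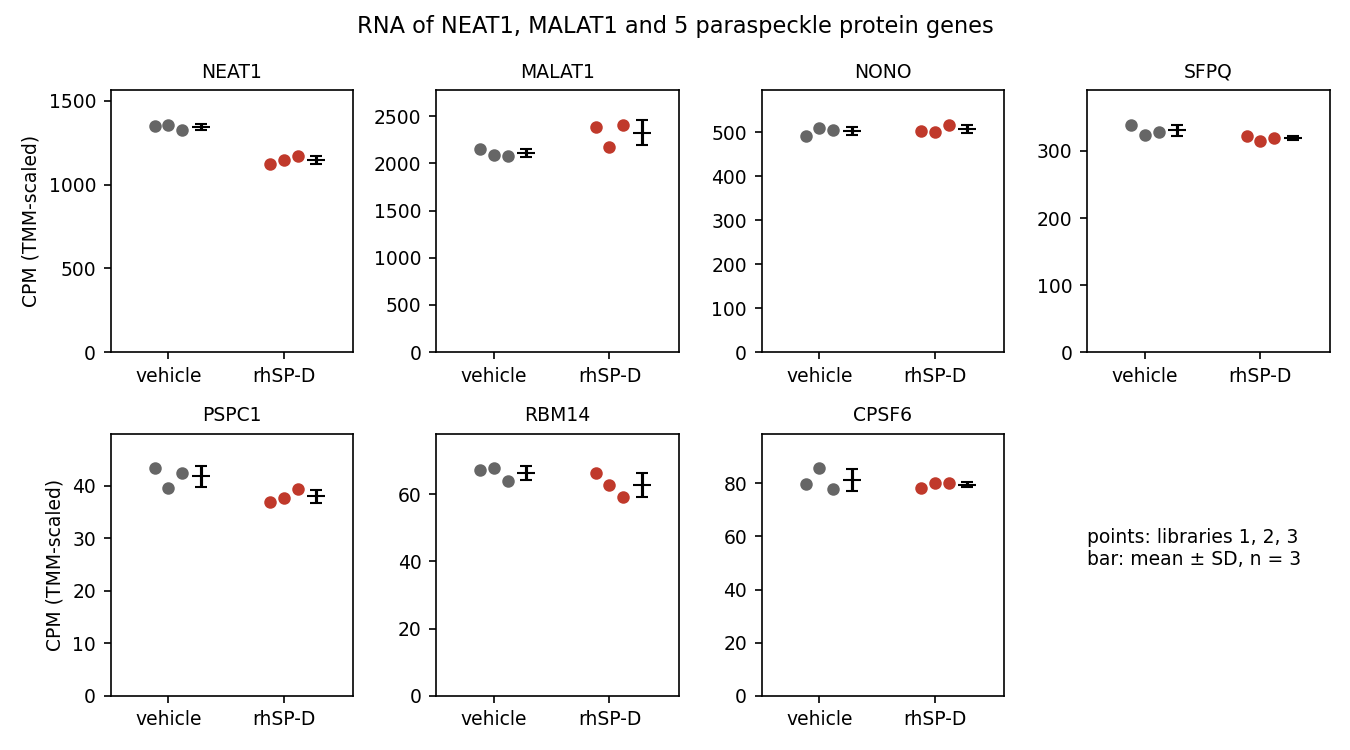
CPM of the 7 genes in each library (y axis from 0, scaled by TMM), vehicle in grey and rhSP-D in red; the black bar is the mean ± SD of 3 libraries. The 3 rhSP-D points of NEAT1 (1123 to 1172) lie below the 3 vehicle points (1325 to 1358), while the points of NONO, RBM14 and CPSF6 overlap between the groups.

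The ratio of the counts of both RNAs within a library needs no scaling between libraries. NEAT1 over MALAT1 was 0.627, 0.649 and 0.638 in vehicle and 0.471, 0.528 and 0.486 with rhSP-D. The ranges did not overlap, with means of 0.638 ± 0.0111 and 0.495 ± 0.0298 (SD, n = 3 each), and the ratio differed by -22.4% (log2 -0.37) with rhSP-D. NONO was the least changed of the members in the fit reported here, though SFPQ was with GC and length trends removed. Since it was near unchanged, ratios to NONO largely repeat the change of the other gene. Set against NONO, NEAT1 was 2.75, 2.67 and 2.62 in vehicle and 2.23, 2.29 and 2.27 with rhSP-D, again without overlap. MALAT1 over NONO was 4.39, 4.11 and 4.11 in vehicle and 4.74, 4.33 and 4.66 with rhSP-D. Here vehicle replicate 1 was above rhSP-D replicate 2, so the groups overlapped.

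**Figure D2:**
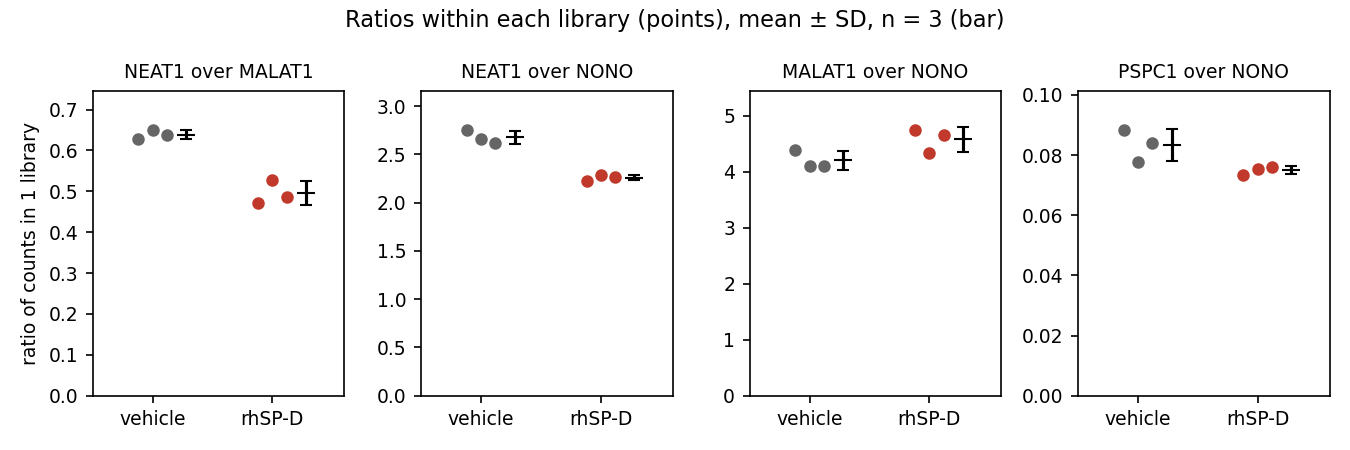
Ratios of raw counts within each library (points, y axes from 0) with the mean ± SD of 3 libraries (bar), for NEAT1 over MALAT1, NEAT1 over NONO, MALAT1 over NONO and PSPC1 over NONO. NEAT1 over MALAT1 lies at 0.627 to 0.649 in vehicle and at 0.471 to 0.528 with rhSP-D, and only MALAT1 over NONO overlaps between the groups.

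Of tested genes, 465 averaged 300 CPM or more, a bound chosen after the values were seen; 66.5% of them were called, 264 higher and 45 lower. The share of calls was thus far above the 15.9% of all genes, and NEAT1, MALAT1, NONO and SFPQ are all in this group. NEAT1 had the lowest log2 change of the 465, followed by the mitochondrial MT-ND4L (-0.22, not called), the fatty acid desaturase SCD (-0.20) and the urea cycle enzyme CPS1 (-0.19). It was second lowest without vehicle replicate 1, rhSP-D replicate 1 or rhSP-D replicate 2 and in libraries thinned to the shallowest. With trends on GC content and length removed it was 9th of 464, and 15th with median transcript length. Genes of any level that were called lower with a log2 change at or below that of NEAT1 numbered 349. MALAT1 stood 125th from the top of the 465, 59th without rhSP-D replicate 2 and 165th without rhSP-D replicate 3. With GC and length trends removed it was 16th of 464, and 51st with median transcript length. Among 489 tested genes annotated as lincRNA, the class of both RNAs, 13 rose and 6 fell (3.89% called) and the median log2 change was -0.02.

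The DBHS proteins NONO, SFPQ and PSPC1, which dimerise with one another and coat the long NEAT1 RNA, come next. NONO (ENSG00000147140, chrX:71283192-71301168, plus strand) measured 491, 509 and 506 CPM in vehicle and 504, 501 and 517 CPM with rhSP-D. The groups overlapped almost fully, with means of 502 ± 9.64 and 507 ± 8.64 CPM (SD, n = 3 each) and a change of 0.904%, whose 95% interval from -1.89% to 3.78% bounds what these libraries leave possible.

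SFPQ (ENSG00000116560, chr1:35176378-35193148, minus strand), needed for paraspeckles and for NEAT1 stability, measured 339, 324 and 329 CPM in vehicle. It measured 322, 315 and 320 CPM with rhSP-D, so all 3 of these lay below the vehicle range, though narrowly. The log2 change was -0.05 ± 0.02 (SE), or -3.35% with a 95% interval from -6.29% to -0.324%, and SFPQ was not called. With library totals alone it was -0.09 and called (edgeR adjusted p = 0.00375), and with GC and length trends removed it was 0.003.

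PSPC1 (ENSG00000121390, chr13:19674752-19783019, minus strand), the marker protein of paraspeckles, measured 43.4, 39.6 and 42.5 CPM in vehicle and 37.0, 37.7 and 39.4 CPM with rhSP-D. Vehicle replicate 2 and rhSP-D replicate 3 nearly touched, and the other libraries were farther apart. The means were 41.8 ± 1.97 and 38.0 ± 1.24 CPM (SD, n = 3 each), a log2 change of -0.13 ± 0.05 (SE), or -8.89% with a 95% interval from -15.1% to -2.24%, without a call. Without vehicle replicate 2 the log2 change was -0.17 and passed (edgeR adjusted p = 0.0344), as it did with library totals alone (-0.18, adjusted p = 0.0137). No other of the 18 alternatives called PSPC1, and with GC and length trends removed it was at -0.09 (edgeR adjusted p = 0.289). PSPC1 had the largest percentage difference of the 3 DBHS genes, but its spread of 4.72% and 3.25% in the groups was close to counting error, 3.81% and 3.52%. PSPC1 over NONO was 0.0883, 0.0777 and 0.0841 in vehicle and 0.0734, 0.0753 and 0.0762 with rhSP-D, and did not overlap. SFPQ over NONO and PSPC1 over SFPQ both overlapped.

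RBM14 (ENSG00000239306, chr11:66616582-66627347, plus strand) ranged from 63.8 to 67.8 CPM in vehicle and from 59.3 to 66.5 CPM with rhSP-D, and CPSF6 (ENSG00000111605, chr12:69239537-69274358, plus strand) from 78.0 to 85.8 and from 78.4 to 80.2 CPM. Both overlapped between the groups in these scaled values. As a share of the unscaled library total, CPSF6 was at 0.00792% in the lowest vehicle library and 0.00791% in the highest rhSP-D library. The changes were -4.72% with a 95% interval from -10.4% to 1.29% for RBM14 and -2.21% with an interval from -7.29% to 3.15% for CPSF6. RBM14 was called in 2 alternatives, both with a GC and length correction, for example at a log2 change of -0.14 with the median transcript length (edgeR adjusted p = 0.0260). The readthrough gene RBM14-RBM4 shares 432 nt of exon with RBM14 and was counted 33 to 114 times per library. Its ratio to RBM14 was 0.0279 in rhSP-D replicate 3 and 0.0618 to 0.0888 in the other libraries. How reads were split between these genes was not tested. NONOP2, a pseudogene of NONO, had 3 to 17 counts.

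Taken as classes, the RNAs had a mean log2 change of -0.04 and the 5 protein genes one of -0.05, a difference of 0.01. The mean log2 CPM of both RNAs minus that of the 5 protein genes was 3.70, 3.69 and 3.69 in vehicle and 3.70, 3.66 and 3.74 with rhSP-D. These ranges overlapped, at 3.69 ± 0.007 and 3.70 ± 0.04 (SD, n = 3 each). NEAT1 and MALAT1 differed in sign, so their mean lies close to that of the proteins although neither RNA does. With GC and length trends removed the difference was 0.08.

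**Figure D3:**
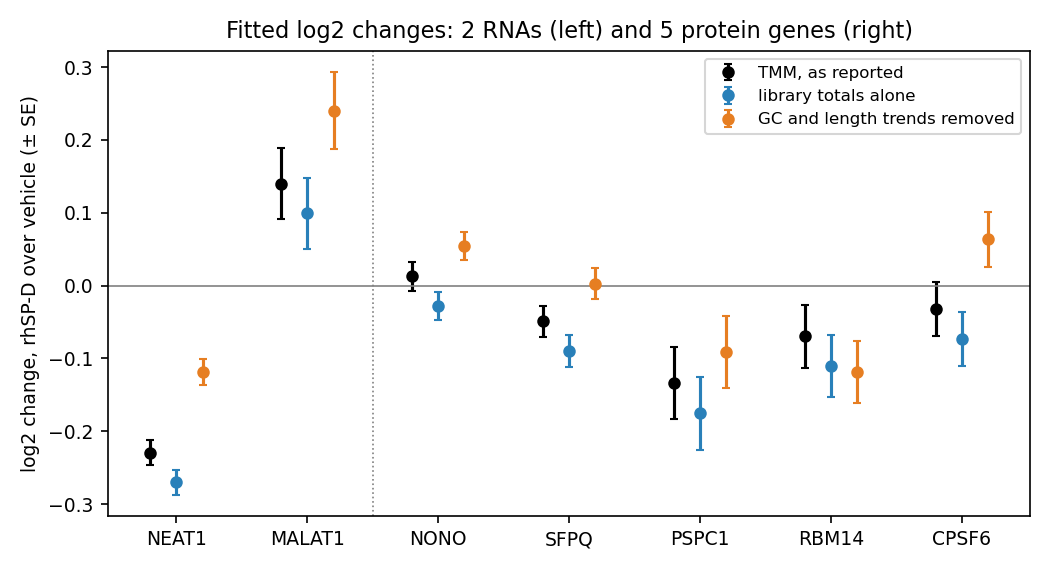
Fitted log2 change of rhSP-D over vehicle (y axis, ± SE) for each of the 7 genes, with 3 colours for TMM scaling, library totals alone, and removal of GC and length trends. NEAT1 lies below 0 in all 3, from -0.27 to -0.12, and MALAT1 above 0 in all 3. PSPC1 and RBM14 lie below 0 in all 3, RBM14 at -0.12 with the trends removed, as low as NEAT1 there.

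Levels between genes were compared as CPM per kb of merged exons over the 6 libraries. MALAT1 was highest at 251 ± 16.6 (SD, n = 6), followed by NONO at 95.4 ± 1.63, NEAT1 at 54.7 ± 4.83, SFPQ at 43.7 ± 1.13, RBM14 at 16.4 ± 0.827, CPSF6 at 9.95 ± 0.345 and PSPC1 at 8.29 ± 0.527. No neighbours in this order overlapped in their ranges over the 6 libraries. NEAT1 was at 59.1 ± 0.778 in vehicle and 50.4 ± 1.09 with rhSP-D (SD, n = 3 each), and kept its place in both. The order depends on length: with the longest transcript SFPQ stood above NEAT1, and PSPC1 above CPSF6. MALAT1 was 4.58 times NEAT1 per kb of merged exons and 11.7 times with the median transcript length (480 nt for MALAT1 and 3147 nt for NEAT1). Their order depends on length too. With 3147 nt NEAT1 was at 396 CPM per kb, above MALAT1 at 254 with its longest transcript (8708 nt). Which forms the counts came from, and how far each was captured as poly(A) RNA, was not tested.

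Beyond the members, 32 other paraspeckle proteins were all tested. For this and the lists below, the 15.9% of all genes is not matched for level, and 66.5% were called at 300 CPM or more. Of these 3 rose and 2 fell (15.6% changed), with a median log2 change of -0.01. HNRNPH1, a splicing regulator, was at 607 ± 4.47 CPM in vehicle and 571 ± 4.89 CPM with rhSP-D (SD, n = 3 each; log2 -0.09, edgeR adjusted p = 8.42e-04), but at 0.01 with GC and length trends removed. HNRNPUL1, an hnRNP U relative, fell by 0.06 on the log2 scale (edgeR adjusted p = 0.0185). The rises were in HNRNPF (0.09), a relative of HNRNPH1, in HNRNPA1 (0.06), a core hnRNP protein, and in AKAP8L (0.14), a nuclear matrix protein whose exons overlap genes on the opposite strand over 1616 nt. HNRNPF missed the threshold without vehicle replicate 3, HNRNPA1 without vehicle replicate 1 or rhSP-D replicate 3, HNRNPUL1 without any of 3 libraries and AKAP8L without any of 4 (edgeR adjusted p from 0.0549 to 0.0960 in these fits). The other subunits of cleavage factor I were not called, NUDT21 at -0.06 and CPSF7 at -0.09. With library totals alone 0 of the 32 rose and 7 fell, and with GC and length trends removed 10 rose and 1 fell, so the direction of this group depended on the scaling.

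Of 25 nuclear speckle proteins, 2 rose and 4 fell (24.0% changed, beside 15.9% of all genes), with a median log2 change of 0.01. SF3B1, a subunit of the U2 snRNP, fell by 0.13 and SRRM2, a scaffold of speckles, by 0.09 on the log2 scale (edgeR adjusted p = 0.00135 and 0.00161). RNPS1, of the exon junction complex, rose by 0.09 (edgeR adjusted p = 0.0106; 0.0660 without vehicle replicate 3). Library totals alone gave 0 higher and 7 lower, and the GC and length correction 6 higher and 2 lower.

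Of 17 genes of 3' end processing and nuclear decay, 2 rose and 2 fell (23.5% changed, beside 15.9% of all genes), with a median log2 change of 0.01. POP7, a protein subunit of RNase P, rose from 32.9 ± 1.77 to 40.0 ± 1.11 CPM (SD, n = 3 each; 21.2%, edgeR adjusted p = 3.10e-04), the largest change of the list, and the 9 other protein subunits of RNase P listed were not called. PABPN1, the nuclear poly(A)-binding protein, rose from 239 ± 7.23 to 262 ± 7.74 CPM (log2 0.14). SKIV2L2, the helicase MTR4 that feeds the nuclear exosome, fell by 0.16 on the log2 scale (edgeR adjusted p = 0.00436), and ZFC3H1, which links MTR4 to polyadenylated RNA, by 0.16 (adjusted p = 0.0351). ZFC3H1 missed the threshold without any of 4 libraries (edgeR adjusted p from 0.0583 to 0.244) and shares 961 nt of exon with a gene of the opposite strand. With GC and length trends removed, PABPN1 kept its call and the other 3 did not.

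Among 9 transcription regulators linked to NEAT1, 1 rose and 1 fell (22.2% changed, beside 15.9% of all genes), with a median log2 change of -0.07. With library totals alone 0 rose and 3 fell. HIF1A, a hypoxia-inducible factor subunit, was at 429, 419 and 444 CPM in vehicle and 379, 382 and 380 CPM with rhSP-D. All rhSP-D libraries were below all vehicle libraries, and the log2 change was -0.18 ± 0.02 (SE; edgeR adjusted p = 4.04e-07), called under all 18 alternatives. HSF1, the heat shock factor, rose by 0.11 (edgeR adjusted p = 0.0109; 0.0588 to 0.0692 without rhSP-D replicate 1 or 2). STAT3 was at -0.07 and did not pass (edgeR adjusted p = 0.0592). Of the same list, EPAS1 (0.03) and ARNT (-0.09) were not called either. Whether any of these regulators acted on NEAT1 here was not tested.

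Paraspeckles are also known for holding back RNAs with inverted repeats, which ADAR enzymes edit. Of 6 genes listed for this retention, editing enzymes among them, 0 rose and 3 fell, beside 6.63% of all genes that fell, with a median log2 change of -0.12. They are not a set of retained RNAs. With GC and length trends removed 2 fell and the median was -0.05. ADAR, the main editing enzyme, was at 226, 232 and 226 CPM in vehicle and 207, 205 and 201 CPM with rhSP-D (log2 -0.16, edgeR adjusted p = 2.08e-05). SLC7A2, the arginine transporter gene whose mouse counterpart gives the retained RNA Ctn, fell from 169 ± 9.04 to 147 ± 3.59 CPM (SD, n = 3 each; log2 -0.21). A further editing enzyme, ADARB1, fell by 0.13 on the log2 scale (edgeR adjusted p = 0.0315), and missed the threshold with any 1 of the 6 libraries left out (adjusted p from 0.0603 to 0.104). Editing itself was not measured.

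**Figure D4:**
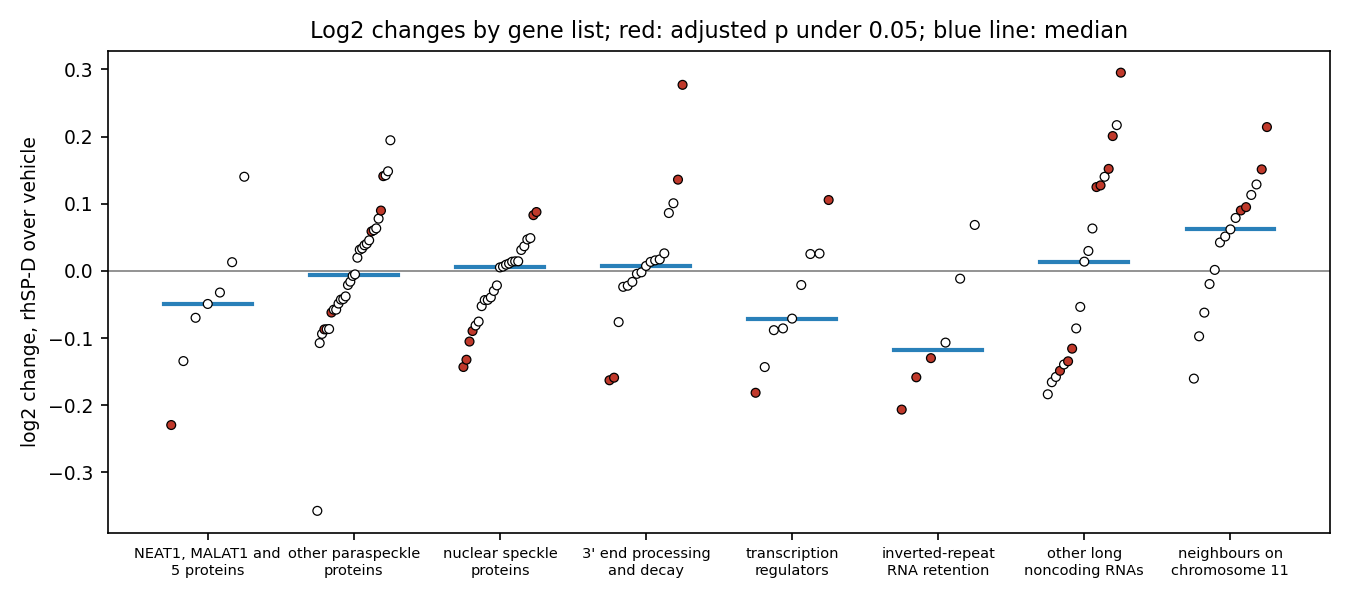
Log2 change of rhSP-D over vehicle (y axis) for every tested gene of the 7 members and of the 7 other lists (x axis); red points passed the adjusted p threshold and the blue line is the median of a list. The medians of the larger lists lie near 0, that of the 6 genes listed for inverted-repeat RNA retention at -0.12, and NEAT1 is the only red point among the members.

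Of 19 other long noncoding RNAs, 5 rose and 3 fell (42.1% changed, beside 15.9% of all genes), with a median log2 change of 0.01. The 2 shares are not matched for level, so nothing further is read from them. With library totals alone 1 rose and 4 fell, and with GC and length trends removed 3 rose and 1 fell. LINC00657, the Pumilio-binding RNA NORAD, fell by 0.13 on the log2 scale (295 ± 7.17 to 269 ± 4.59 CPM, SD, n = 3 each; edgeR adjusted p = 1.05e-04), but was at 0.005 with trends on GC content and median transcript length removed. TUG1 fell by 0.15 (edgeR adjusted p = 0.00395), and shares 810 nt of exon with genes on the opposite strand. GAS5, a host of small nucleolar RNAs, rose by 0.12 (edgeR adjusted p = 0.00498; 0.0991 without vehicle replicate 3).

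The 15 tested neighbours of NEAT1 and MALAT1 on chromosome 11 held 4 that rose and 0 that fell (26.7% changed, beside 15.9% of all genes), with a median log2 change of 0.06. With library totals alone 2 rose and 3 fell. FRMD8, which starts and ends before NEAT1, was not called, at 37.6 ± 1.82 CPM in vehicle and 38.6 ± 0.153 CPM with rhSP-D (SD, n = 3 each). On the side of MALAT1, FAM89B rose by 0.21. It shares 1030 of its 1458 nt of exon with SSSCA1 on the same strand, which was not called (-0.02). LTBP3, which binds latent TGF-beta, rose by 0.09, and EHBP1L1 by 0.09. EHBP1L1 missed the threshold without vehicle replicate 3 or rhSP-D replicate 1 (edgeR adjusted p = 0.0884 and 0.152). Under the GC and length correction LTBP3 alone of the 15 was called.

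Over all the lists, calls of named genes that were lost with library totals alone were those of HNRNPF, HNRNPA1, AKAP8L, RNPS1, HSF1, GAS5, LTBP3 and EHBP1L1. Lost under the GC and length correction were those of HNRNPH1, AKAP8L, SF3B1, POP7, SKIV2L2, ZFC3H1, HSF1, ADARB1, TUG1, FAM89B and EHBP1L1. ADAR, SLC7A2, LINC00657 and LTBP3 kept theirs under that correction and lost them with median transcript length in its place.

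**Figure D5:**
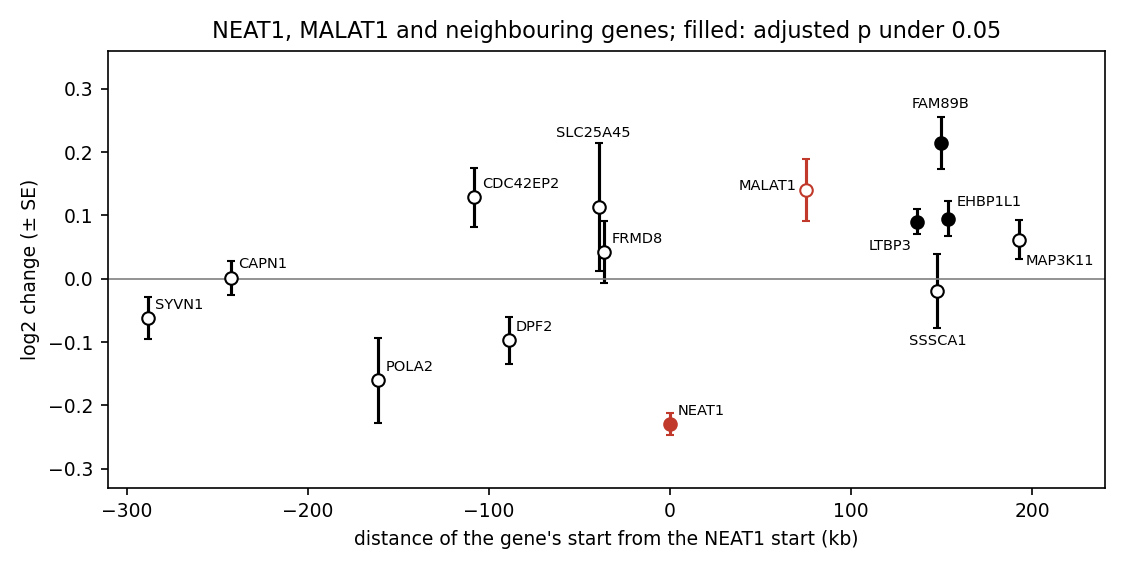
Log2 change of rhSP-D over vehicle (y axis, ± SE) of NEAT1 and MALAT1 (red) and tested neighbours (black) by distance of the gene start from the NEAT1 start in kb (x axis); filled points passed the adjusted p threshold, and not every tested neighbour is drawn (TIGD3 and KCNK7, for example, had a wide SE). NEAT1 at -0.23 is the lowest point, and the filled neighbours drawn, from 0.09 to 0.21, all lie beyond MALAT1.

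Across the 6 libraries, the genes whose log2 CPM followed NEAT1 most closely among the 9814 tested genes whose mean reached 10 CPM were the myotrophin gene MTPN (Pearson r = 0.996), the methionine adenosyltransferase MAT2A (0.996) and HNRNPH1 (0.995), and 220 genes had an r of at least 0.95. For MALAT1 they were SEC62 (0.987) and SRP9 (0.983), both of protein transport into the endoplasmic reticulum, and CD2BP2 (0.983), with 45 genes at 0.95 or more. The 6 points fall in 2 groups of 3 that share libraries and scaling, and the values describe these libraries alone.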

How the data were processed

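Poly(A) RNA of 6 A549 samples was sequenced as read pairs. What the authors deposited is a table of raw, whole-number counts for each gene. The submitters' processing notes name cutadapt, STAR 2.7.0a and featureCounts 2.0.0 with GRCh38; for strand setting, multi-mapping and annotation release the entry is: not given in the sources used here. Without strand, reads of overlapping opposite-strand genes cannot be told apart (396 nt of MALAT1, 62 nt of CPSF6, 36 nt of PSPC1).

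Samples were grouped by title. No source says that replicates were separate cultures, so p-values measure a spread that may be technical. In edgeR 4.0.16 (R 4.3.3), filterByExpr (minimum count 10, total 15) kept 15848 genes, TMM scaled the libraries, and groups were compared by the 2-sided quasi-likelihood test (robust fit), with p-values adjusted by Benjamini-Hochberg across all of these genes. Intervals are 95% from this fit. The procedure was tested on simulated counts in which a small share of genes changed, equally up and down, without GC or length trends. That test therefore does not bear on how calls depend on the scaling or on the GC and length correction. Transcript sequences and lengths come from GENCODE 29, which holds 96.8% of tested genes.

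The members and 7 lists (125 entries, 123 matched) were chosen with earlier results of these data known. Named were the members; of each list the 3 genes with the smallest p, and all changed genes where 5 or fewer; the 3 genes most like NEAT1 and MALAT1; and the nearest tested neighbours. One gene that met this rule is not reported here. NUDT21, CPSF7, EPAS1, ARNT, SSSCA1 and the abundant genes were named after their values were seen. Of the ratios between members, only NEAT1 over MALAT1 was planned. Alternatives were other size factors, low-count filters, a replicate block, libraries left out, DESeq2 1.42.0 and limma-voom (limma 3.58.1), and a correction for GC content and length (splines with 5 degrees of freedom). Thinning to the shallowest library and the correction with median transcript length were chosen after seeing the data.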

Additional observations from a re-analysis of the deposited data

How the results depend on the processing

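NEAT1 stayed lower and called under all 18 alternatives run. With 1 library left out, and so fewer samples, 1 to 2 members were called, 1678 to 2182 genes changed instead of 2526, and 21 to 28 list genes instead of 32 (21 without vehicle replicate 3). Members called numbered 3 with library totals alone, 2 with DESeq2 and 2 with the GC and median transcript length correction. Changed genes numbered 1534 with DESeq2. Of changed genes 58.4% were higher, against 30.4% with library totals alone, 74.8% with the GC and length correction and 76.0% with correction and block together. RNAs minus proteins was 0.079 with that correction and 0.066 with median length, and MALAT1 over NEAT1 per kb was 11.7 with median length. The cause was not tested.

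Signs turned for some log2 changes. Most of these were small and not called, but HNRNPH1 (-0.087) and LINC00657 (-0.13) had been called lower in the fit reported above. Under the GC and length correction the log2 changes were 0.0026 for SFPQ, 0.063 for CPSF6, 0.014 for HNRNPH1 and -0.0076 for FRMD8. With median length they were 0.025 for CPSF6, -0.041 for FRMD8 and 0.0052 for LINC00657. NONO was at -0.028 with library totals alone. With 1 library left out NONO ran from -0.0025 (without rhSP-D replicate 3) to 0.025, CPSF6 from -0.067 to 0.014 (without vehicle replicate 2), and FRMD8 from -0.0019 (without vehicle replicate 3) to 0.082.

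Same-numbered samples of both groups did not deviate together (correlations -0.08, 0.0008 and -0.14). With 3 samples a group this cannot settle whether they were paired or shared a batch, and no source names a pairing. With a replicate block 2319 genes changed and 2 members were called, NEAT1 and MALAT1 (MALAT1 at an edgeR adjusted p of 0.0140, and 0.00845 with the GC and length correction added). With the replicate block and the GC and length correction, 1503 genes changed, 3 members were called, RNAs minus proteins was 0.079, and the log2 changes were 9.6e-05 for SFPQ, 0.066 for CPSF6, 0.013 for HNRNPH1 and -0.0072 for FRMD8.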
